A study of Homo sapiens with 6 samples.

Results

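The insulin-like growth factor (IGF) binding proteins and IGF receptors were examined in ARPE-19 cells, an established human retinal pigment epithelial line, with PDZK1 raised by a lentivirus. The members were taken by symbol from the gene tables: IGFBP2, IGFBP3, IGFBP4, IGFBP5, IGFBP6, IGFBP7, IGF1R, IGF2R and the ligand IGF2. Each symbol matched 1 of the 21314 entries by the symbol listed there, giving 9 members, and 7 of them had enough reads to be tested. RNA sequencing covered 6 libraries: 3 controls that had received a control lentivirus, and 3 in which the lentivirus drove overexpression of PDZK1, a PDZ domain scaffold protein. Both groups were transduced at a multiplicity of infection of 10, selected with 4 µg/ml puromycin and kept in 37.5 mM glucose for 48 h. Control cells therefore shared the virus, the selection and the high glucose, and no library from normal glucose or untransduced cells was analysed here. The comparison asks which transcripts differ with PDZK1 overexpression in high glucose. The labels do not say whether the 3 libraries of a group came from separate cultures, so p-values measure the spread between these libraries, which may be technical.

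IGFs are peptide growth factors that signal through IGF1R, a receptor tyrosine kinase that feeds the PI3K, AKT and mTOR pathway. Secreted IGF binding proteins hold the ligands in the extracellular fluid, and proteases that cut them set the ligands free. IGF2R, also called the cation-independent mannose 6-phosphate receptor, takes up IGF2 for degradation and sorts lysosomal enzymes, while several binding proteins, among them IGFBP3, IGFBP5 and IGFBP7, are also known as secreted proteins of senescent cells.

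The libraries held between 27970618 and 32804567 estimated counts. Reads of PDZK1 itself numbered 19, 18 and 23 in controls, against 3020, 2541 and 2828 after overexpression. Of the 13645 genes tested, PDZK1 overexpression raised 193 (1.41%) and lowered 329 (2.41%) past an adjusted p of 0.05, which is 3.83% in either direction. Control replicate 3 stood apart from the other control libraries on the second principal component of expression. Of 13 pigment epithelium genes all were listed, 2 (RPE65 and TTR) were at 0 counts in every library, and the 10 that could be tested did not pass the threshold. Among these, the epithelial keratin KRT8 had 577 FPKM in the control group and 581 FPKM in the PDZK1 group, and the transcription factor OTX2 had 23.5 and 23.0 FPKM. In LRAT, a retinoid-cycle enzyme, and SERPINF1, which encodes PEDF, every PDZK1 library lay below every control library, at means of 2.34 against 1.32 CPM for LRAT and 1.24 against 0.697 CPM for SERPINF1 (control first; edgeR adjusted p = 0.20 and 0.29). BEST1 had 11459 counts in PDZK1 replicate 1 and 124 to 181 in the other 5 libraries. The summed level of 6 fibroblast genes was 11.0 to 13.5 FPKM in control libraries and 13.6 to 15.0 FPKM in PDZK1 libraries, with COL1A2, DCN and LUM at 0 in all. The sum of 4 endothelial genes was 0.802 to 0.808 against 0.595 to 0.656 FPKM with CDH5 at 0, and that of 3 blood genes 70.8 to 85.8 against 66.5 to 68.3 FPKM with PTPRC at 0. A single gene made up most of each sum: PDGFRB (mean 11.5 and 13.2 FPKM, control first), KDR (0.770 and 0.561) and CD68 (78.3 and 67.5). The part of these sums in the results for the IGF genes was not tested.

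The start regions of 4 members are shown because they include a pair of neighbouring binding protein genes and the receptor pair. IGFBP2 and IGFBP5 lie tail to tail on chromosome 2, with 7668 bases between them, and the receptors lie on chromosomes 15 and 6. Each line gives the 150 bases before the RefSeq gene start in GRCh38.p14, written 5′ to 3′ on the strand of the gene. IGFBP2 was read from chr2:216632678-216632827 (plus strand), IGFBP5 from chr2:216695550-216695699 (minus), IGF1R from chr15:98648389-98648538 (plus) and IGF2R from chr6:159968932-159969081 (plus). Capitals mark GC boxes, found as GGGCGG on either strand.
IGFBP2: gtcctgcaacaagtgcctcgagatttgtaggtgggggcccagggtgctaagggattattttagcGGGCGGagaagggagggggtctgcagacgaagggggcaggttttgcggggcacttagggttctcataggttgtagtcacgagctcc
IGFBP5: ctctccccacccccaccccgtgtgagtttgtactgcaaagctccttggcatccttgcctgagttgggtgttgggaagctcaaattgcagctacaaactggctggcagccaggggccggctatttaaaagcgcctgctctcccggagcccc
IGF1R: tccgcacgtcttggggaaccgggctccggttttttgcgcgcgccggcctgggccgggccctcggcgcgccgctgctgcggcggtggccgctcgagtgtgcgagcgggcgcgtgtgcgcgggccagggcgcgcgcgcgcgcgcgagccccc
IGF2R: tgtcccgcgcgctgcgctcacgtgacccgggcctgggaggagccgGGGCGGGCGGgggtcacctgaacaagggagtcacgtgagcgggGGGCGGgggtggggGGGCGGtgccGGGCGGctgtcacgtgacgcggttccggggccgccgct
The IGF2R window held 5 GC boxes, 2 of which overlap, and IGFBP2 held 1, while 36.7% of 34943 promoter windows of this length held at least 1. The TATA box TATAAA (6.72% of windows), CCAAT (23.5%), the AP-1 site TGACTCA (2.90%) and the FOXO site GTAAACA (1.74%) were searched on both strands and gave no match in these 4 windows. The GC content was 81.3% for IGF1R and 78.7% for IGF2R, against 58% for IGFBP2 and 59.3% for IGFBP5 and a median of 60% over all windows. Of the 9 members, 7 matched the RefSeq promoter table; IGFBP7 and IGF2 did not.

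IGFBP5, IGFBP7 and IGF1R rose with PDZK1 overexpression, by 1.79-fold, 1.17-fold and 1.13-fold, and the other 4 tested members did not pass the threshold. Thus 3 of 7 tested members were called higher, where 1.41% of all tested genes were. In 4 members every PDZK1 library lay above every control library, an arrangement found in 11.6% of tested genes, and no member had the opposite arrangement, found in 12.3%. The median log2 fold change of the 7 tested members was 0.17, beside -0.00025 for all tested genes. The members and gene lists were chosen with earlier results of these data known, so these shares and the median are descriptions, not a test. Every tested member had at least 37 counts in each library, so none was tested only through the group in which it was higher. These calls changed with the library left out, and why was not tested. Without control replicate 3, 4 members passed, and 1 passed without control replicate 1 or PDZK1 replicate 2. No member passed without control replicate 2, PDZK1 replicate 1 or PDZK1 replicate 3. In each of these last 3 edgeR fits, 4 members were at an unadjusted p under 0.05. Over all tested genes, edgeR called 522 on all libraries, 875 without control replicate 3 and 181 to 293 in the other fits that left out a library. The limma fits of FPKM called 1 member and 184 to 191 genes, and DESeq2 called 4 members and 793 genes. Fold changes and adjusted p-values below come from edgeR's quasi-likelihood test with Benjamini-Hochberg adjustment over all tested genes, and levels are given as CPM, which scales counts to the library size, or, between genes, as FPKM, which also divides by transcript length. In bulk RNA, fewer cells expressing a gene and less RNA per cell cannot be told apart.

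**Figure D1:**
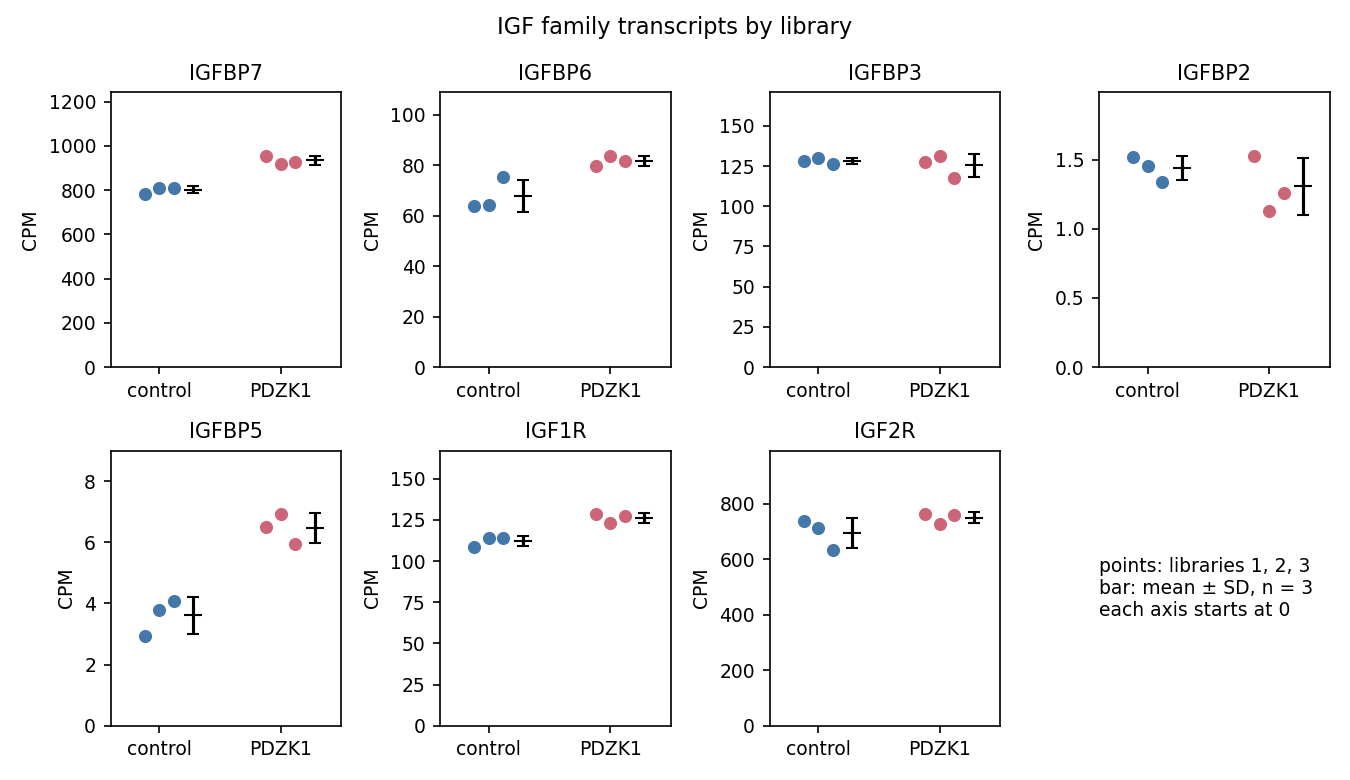
Library-scaled counts (CPM) of the 7 tested members in each of the 3 control and 3 PDZK1 libraries, with the group mean ± SD beside the points and each vertical axis starting at 0. The libraries of the 2 groups do not overlap for IGFBP5, IGFBP6, IGFBP7 and IGF1R, and overlap for IGFBP2, IGFBP3 and IGF2R.

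IGFBP7 is a secreted protein of the IGFBP superfamily that binds IGFs weakly and is a component of vascular matrix. Its gene (ENSG00000163453) lies on the minus strand of chromosome 4 (chr4:57030773-57110385, GRCh38, GENCODE 29). IGFBP7 had 785, 810 and 812 CPM in the control group and 957, 920 and 930 CPM in the PDZK1 libraries. All PDZK1 libraries were above all control libraries. The mean went from 802 ± 15.1 to 935 ± 19.2 CPM (SD, n = 3), and the log2 fold change was 0.22 with a standard error of 0.036 (95% interval 0.14 to 0.30; edgeR adjusted p = 0.0102). In the limma fits of FPKM IGFBP7 was the only member that passed, and with 1 library left out it passed in 3 of 6 fits, with an adjusted p between 0.00216 and 0.0790. The gene overlaps POLR2B, an RNA polymerase II subunit gene on the opposite strand, and without a stated strand setting their shared reads cannot be told apart. POLR2B had a log2 fold change of 0.021 (edgeR adjusted p = 0.843).

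IGFBP5 binds IGFs, extracellular matrix and hydroxyapatite, and is one of the most conserved binding proteins. It lies on the minus strand of chromosome 2 (ENSG00000115461, chr2:216672105-216695525). Control libraries gave 95, 117 and 113 reads of IGFBP5 and PDZK1 libraries gave 208, 227 and 189, which is 2.94, 3.79 and 4.10 against 6.49, 6.93 and 5.96 CPM. The groups were well apart, although IGFBP5 was among the least abundant members. The mean rose from 3.61 ± 0.598 to 6.46 ± 0.484 CPM (SD, n = 3). The log2 fold change was 0.84 with a standard error of 0.16 (95% interval 0.48 to 1.20; edgeR adjusted p = 0.0204), the highest of the 7 tested members. On the FPKM scale the log2 difference was 0.33 with a pseudocount of 1 and 0.70 with a pseudocount of 0.1, and neither passed. With 1 library left out it ran from 0.71 to 0.94 and passed in 1 of 6 fits, with an edgeR adjusted p between 0.00944 and 0.0953. The transcript length implied by its counts and FPKM was 5976 bases in control replicate 2 and 6719 to 6797 bases in the other 5 libraries, so its FPKM does not rest on the same length in every library.

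IGFBP2, a binding protein of serum and nervous tissue, lies on the plus strand beside IGFBP5 (ENSG00000115457, chr2:216632828-216664436). It had 49, 45 and 37 counts in the control group against 49, 37 and 40 in the PDZK1 group. The groups overlapped, at 1.44 ± 0.0894 and 1.31 ± 0.204 CPM (SD, n = 3). Its log2 fold change was -0.14 (95% interval -0.71 to 0.43; edgeR adjusted p = 0.836), an interval wide enough to hold a change of either sign. The difference in response between IGFBP2 and IGFBP5 was not itself tested.

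IGFBP6 prefers IGF2 to IGF1 as a ligand. The gene (ENSG00000167779, chr12:53097436-53102345, plus strand) had 64.0, 64.2 and 75.3 CPM in the control group, compared with 79.7, 83.9 and 81.7 CPM under PDZK1 overexpression. The groups did not overlap, and control replicate 3 was the nearest of the control libraries to the PDZK1 group. The means were 67.8 ± 6.50 and 81.7 ± 2.09 CPM (SD, n = 3). The log2 fold change was 0.27 with a standard error of 0.065 (95% interval 0.12 to 0.42), and the edgeR adjusted p of 0.0551 missed the threshold. Without control replicate 3 the log2 fold change was 0.35 (edgeR adjusted p = 0.0014), but in the other 5 fits that left out a library it missed the threshold, with an edgeR adjusted p between 0.147 and 0.217. On all 6 libraries DESeq2 gave an adjusted p of 0.00986 and the limma fits of FPKM gave 0.101 to 0.142.

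IGFBP3, the main carrier of IGFs in the circulation (ENSG00000146674, chr7:45912245-45921874, minus strand), had 128, 130 and 126 CPM in the control group against 127, 132 and 118 CPM in the PDZK1 group. The PDZK1 libraries lay on both sides of the control range. The means were 128 ± 1.67 and 125 ± 7.14 CPM (SD, n = 3), with a log2 fold change of -0.029 (95% interval -0.13 to 0.069; edgeR adjusted p = 0.795).

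IGF1R, the signalling receptor (ENSG00000140443, chr15:98648539-98964530, plus strand), had 109, 114 and 114 CPM in controls against 129, 123 and 127 CPM with PDZK1. The lowest PDZK1 library was above the highest control library. The means were 112 ± 3.10 and 126 ± 2.96 CPM (SD, n = 3), and the log2 fold change was 0.17 with a standard error of 0.036 (95% interval 0.090 to 0.25; edgeR adjusted p = 0.0322). With 1 library left out IGF1R passed in 1 of 6 fits, with an adjusted p between 0.0206 and 0.155. IGF2R (ENSG00000197081, chr6:159969099-160113507, plus strand) had 738, 714 and 634 CPM against 763, 728 and 760 CPM. Control replicate 1 lay within the range of the PDZK1 libraries, and control replicate 3 was the lowest. The log2 fold change of IGF2R was 0.11 (95% interval -0.015 to 0.23; edgeR adjusted p = 0.354), which contains the estimate for IGF1R. Without control replicate 3 the IGF2R estimate was 0.047.

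IGFBP4 (ENSG00000141753, chr17:40443461-40457731, plus strand), an inhibitory binding protein cut by the protease PAPPA, and the ligand IGF2 (ENSG00000167244, chr11:2129112-2149603, minus strand) had 0 counts in all 6 libraries. The tables do not show whether these zeros are a lack of reads or a failed estimate in the counting, which is not described. If they are true read counts, a count of 0 allows up to 3 counts, which is 0.0915 to 0.109 CPM depending on the library. No fold change can be given for either gene. An entry that the tables list without a symbol and GENCODE 29 names IGF2 (ENSG00000284779) and the read-through gene INS-IGF2 were also at 0. Of 178 entries for ribosomal, proteasome, complex I and RNA polymerase II subunits, 4 were at 0 in every library, namely PSMA8, PSMB11, RPL10L and RPL3L. All the others of these entries had counts in at least 1 library.

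Per transcript length, IGFBP7 was by far the most abundant member. In the control group its level was 517 FPKM, above IGFBP6 (64.8 FPKM), IGF2R (47.1), IGFBP3 (45.2), IGF1R (8.59), IGFBP2 (0.924) and IGFBP5 (0.553). IGF2R and IGFBP3 overlapped between libraries and are not ordered in the control group, and every other neighbouring pair in that order was apart. In the PDZK1 group the levels were 607 FPKM for IGFBP7, 78.8 for IGFBP6, 51.6 for IGF2R, 44.5 for IGFBP3, 9.58 for IGF1R, 0.953 for IGFBP5 and 0.850 for IGFBP2. There IGF2R and IGFBP3 no longer overlapped, whereas IGFBP5 and IGFBP2 did. Over all 6 libraries, 69 of 20461 Ensembl entries had a higher mean FPKM than IGFBP7, against 11873 for IGFBP5.

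**Figure D2:**
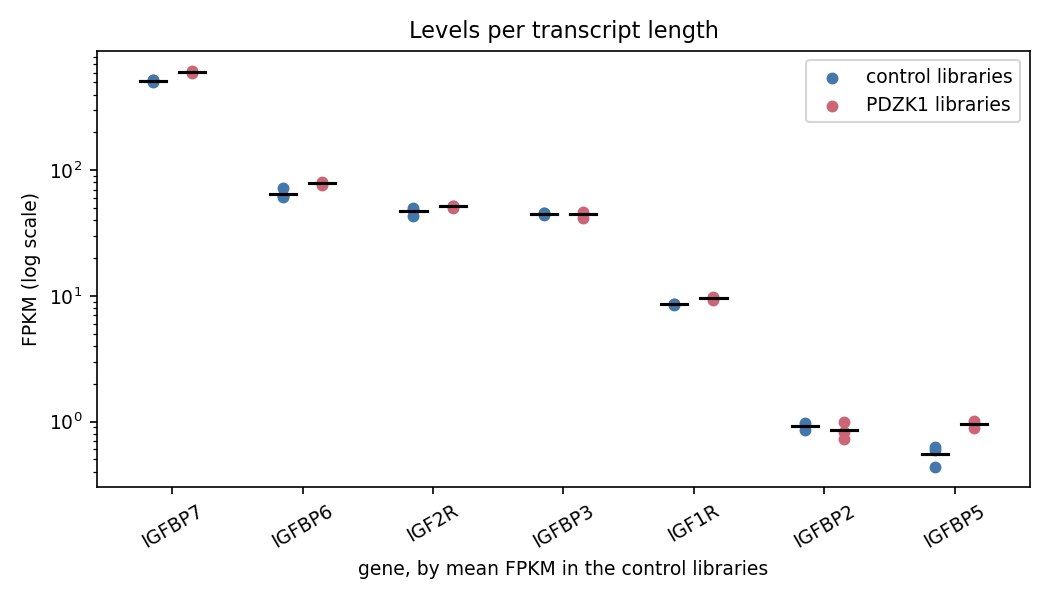
Level per transcript length (FPKM, log scale) of the 7 members with reads, with a point for each of the 3 control and 3 PDZK1 libraries and a bar at the group mean. IGFBP7 averages 517 and 607 FPKM in the control and PDZK1 groups, whereas IGFBP2 and IGFBP5 average below 1 FPKM.

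The summed level of the binding proteins was 615, 631 and 640 FPKM in controls against 746, 724 and 728 FPKM with PDZK1. Its mean went from 629 ± 12.8 to 732 ± 11.6 FPKM (SD, n = 3), a difference of 104 FPKM, of which all binding proteins other than IGFBP7 made up 13.6. IGFBP7 took 82.3% of the sum in the control group and 82.9% in the PDZK1 group. The share of IGFBP3 was 7.38, 7.26 and 6.94% in controls against 6.05, 6.45 and 5.74% with PDZK1, without overlap, while its own FPKM overlapped between the groups. IGFBP6 was the second component, at 10.3% and 10.8%. The ratio of IGF2R to IGF1R in FPKM was 5.87, 5.54 and 5.03 in controls against 5.37, 5.38 and 5.40 with PDZK1, so the PDZK1 values lay inside the control range. The length implied for IGF1R by its counts and FPKM was 12612 to 13091 bases in controls and 13175 to 13186 bases with PDZK1. The FPKM of IGF1R, and so the ratio, does not rest on the same length in every library. These sums and ratios are descriptions and carry no test.

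Of 54 other genes of the IGF axis, all were listed and 42 were tested. IRS2 and PIK3R1 rose, ADAM12 fell, and 39 did not pass the threshold, so 3 of 42 were called where 3.83% of all tested genes were. The median log2 fold change of the 42 was -0.037. Between the groups 5 did not overlap on the higher side and 12 on the lower side, beside 11.6% and 12.3% of all tested genes. The ligand genes were at the limit of detection: IGF1 had 2 counts in control replicate 3 and none elsewhere, and INS had none. IGFBP1 had 3 counts in each of 2 libraries, and IGFBPL1 was too low to be tested.

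Among the 5 proteases that cut IGF binding proteins, ADAM12 fell and the other 4 did not pass. ADAM12, a metalloprotease that cleaves IGFBP3 and IGFBP5, had 126, 124 and 116 CPM in controls against 91.9, 92.4 and 94.7 CPM with PDZK1. Every PDZK1 library was below every control library, and the log2 fold change was -0.39 (95% interval -0.48 to -0.30; edgeR adjusted p = 0.000895). It passed in all 16 alternative fits. ADAM9 and HTRA1, the most abundant of the group, had log2 fold changes of -0.12 (edgeR adjusted p = 0.0886) and -0.14 (0.164). ADAM9 did pass with DESeq2 and in the edgeR fit without control replicate 3. ADAM12 was 1 of 4 proteases in which every PDZK1 library was lower, an arrangement found in 12.3% of all tested genes, and the median log2 fold change of the 5 was -0.14, beside -0.00025 for all tested genes. STC2, a secreted inhibitor of the PAPPA proteases, differed by -0.012 (edgeR adjusted p = 0.895).

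Downstream of IGF1R, 1 of 7 adaptors and 1 of 9 PI3K and AKT genes passed. IRS2, an adaptor that docks PI3K to the insulin and IGF1 receptors, had 127, 121 and 127 CPM in controls against 135, 142 and 146 CPM with PDZK1, with a log2 fold change of 0.18 (95% interval 0.089 to 0.27; edgeR adjusted p = 0.0393). The groups did not overlap. PIK3R1, the main regulatory subunit of PI3K, had 69.8, 72.9 and 73.7 CPM against 84.5, 80.6 and 87.8 CPM, with a log2 fold change of 0.23 (95% interval 0.12 to 0.33; edgeR adjusted p = 0.0303). When libraries were left out in turn, IRS2 passed in 1 and PIK3R1 in 2 of 6 fits. INSR, the insulin receptor and a close relative of IGF1R, had a log2 fold change of -0.11 (edgeR adjusted p = 0.579). The adaptors SHC1 and GRB10 had log2 fold changes of -0.091 and -0.027, the kinase AKT1 0.034, the PI3K subunit PIK3R2 0.084, and the AKT substrates GSK3A and FOXO3 -0.080 and -0.055, with edgeR adjusted p-values from 0.233 to 0.862.

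The tested genes of the other roles did not pass with edgeR on all libraries, while DESeq2 called CCN2 higher and CRIM1 and GNPTAB lower. The edgeR fit without control replicate 3 called these and also CCN1 and IGF2BP3. The IGF2 mRNA binding proteins IGF2BP2 and IGF2BP3 had log2 fold changes of -0.18 (edgeR adjusted p = 0.101) and 0.28 (0.303). M6PR, the small mannose 6-phosphate receptor that shares lysosomal cargo with IGF2R, differed by 0.019, and GNPTG, a subunit of the enzyme that makes the mannose 6-phosphate tag, by 0.021 (edgeR adjusted p = 0.863 and 0.857). CCN1 and CRIM1, which carry an IGFBP domain, had log2 fold changes of -0.10 and -0.14 (edgeR adjusted p = 0.306 and 0.127). CCN2, which also carries it, went the other way, with means of 168 CPM in controls and 211 CPM with PDZK1. Its log2 fold change was 0.33 (edgeR adjusted p = 0.145). Over the 5 tested genes of this role the median was -0.10.

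**Figure D3:**
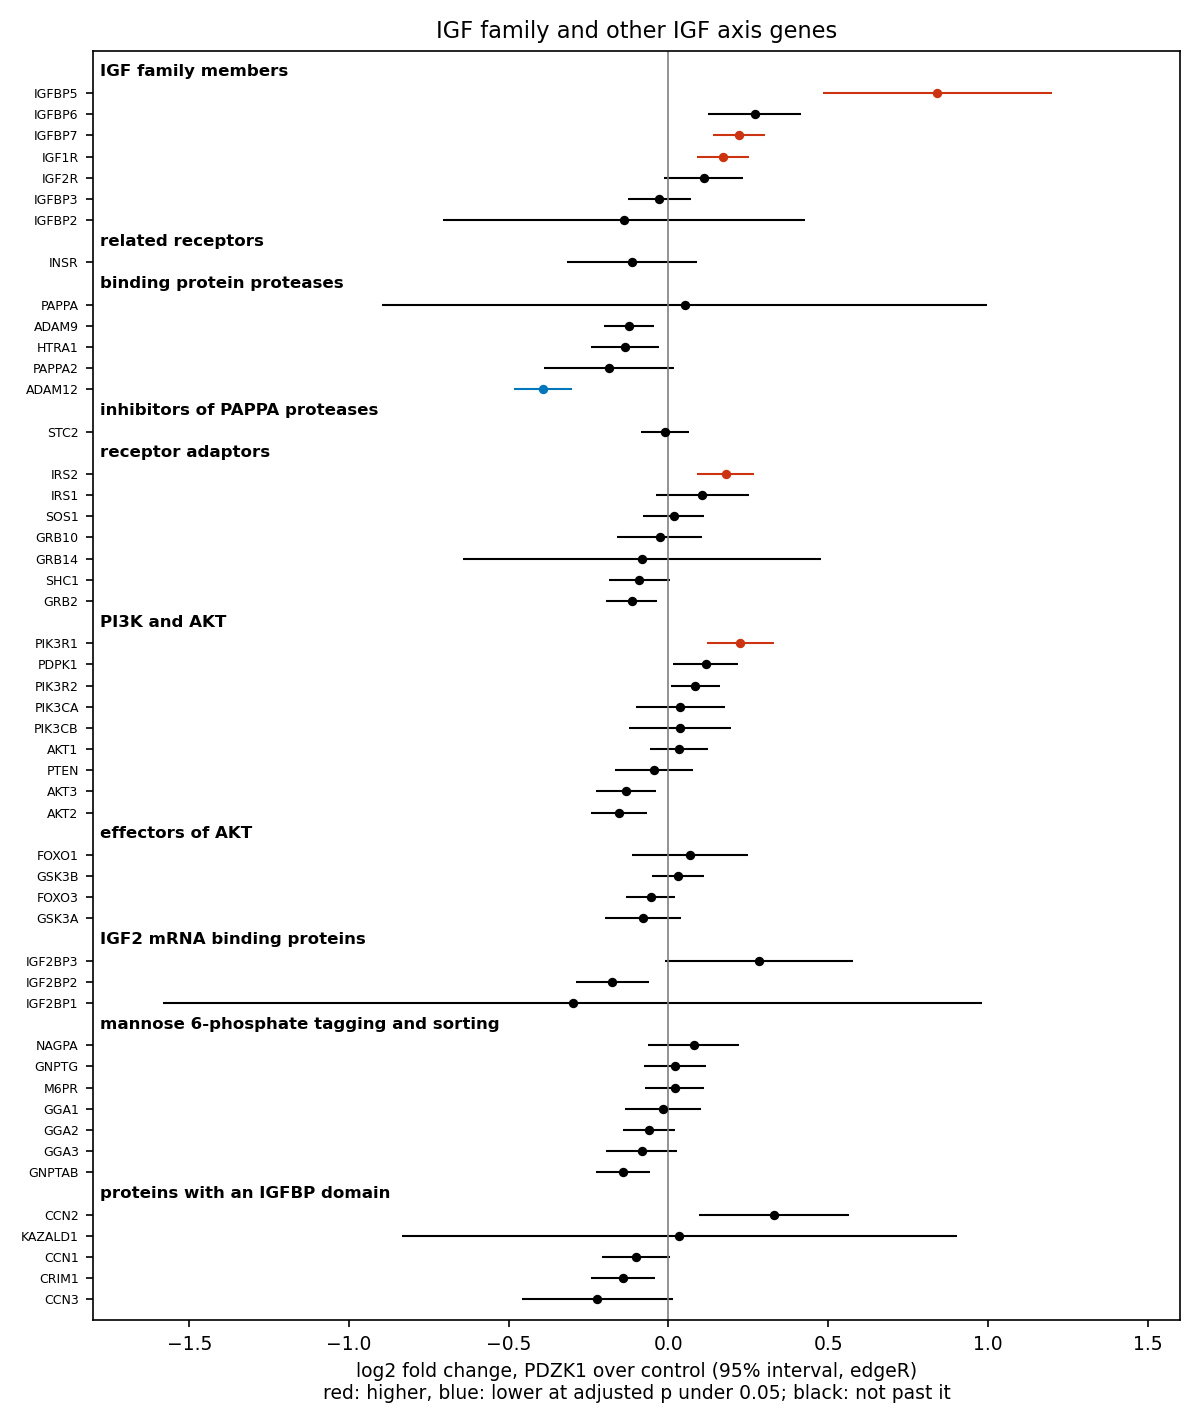
The log2 fold change of PDZK1 over control libraries with its 95% interval (edgeR) for the 7 tested members and the 42 tested genes of the IGF axis, by role. IGFBP5 has the highest estimate (0.84) and ADAM12 (-0.39) is the only gene past the threshold on the lower side.

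The neighbours of the 3 members that rose had medians near 0. Within 5 Mb of IGFBP7, 28 tested genes had a median log2 fold change of -0.041, and 19 of them were below 0. The medians were 0.015 for 54 genes around IGFBP5 and -0.037 for 16 genes around IGF1R. Genes called higher and lower numbered 0 and 1 around IGFBP7, 1 and 0 around IGFBP5, and 0 and 1 around IGF1R. Around IGF2, which had no reads itself, 70 of 85 tested genes were above 0, with a median of 0.14. Of these 85 genes 12 were called higher and 2 lower, beside 1.41% and 2.41% of all tested genes.

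By profile over the 6 libraries, the genes most like IGFBP7 in log2 CPM were PIK3IP1 (Pearson r = 0.998), CMKLR2 (0.998) and SP140 (0.996), out of 11094 candidates of at least 5 CPM. All 3 rose as well, with log2 fold changes of 0.34, 0.86 and 0.45 (edgeR adjusted p = 0.0160, 0.00239 and 0.00764). They were picked by likeness to IGFBP7 over the same libraries, so their shared direction follows from that choice. The closest to IGFBP5 were JAG2 (0.996), ZNF189 (0.996) and TMEM126B (0.994), and the closest to IGF1R were CHD1L (0.997), RGL3 (0.993) and NPY1R (0.988), none of which passed. With 6 libraries in 2 groups such values are common: 332, 266 and 252 candidates had an r over 0.9 with IGFBP7, IGFBP5 and IGF1R.

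**Figure D4:**
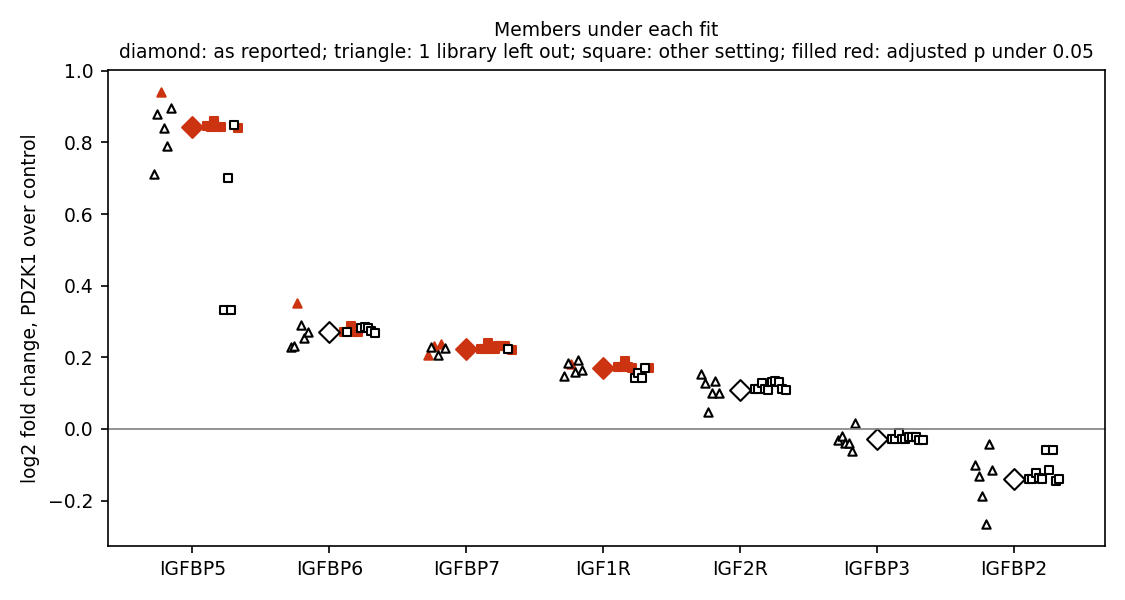
The log2 fold change of each tested member as reported (diamond), with 1 library left out (triangles) and under the other settings (squares), filled where the adjusted p was under 0.05. Estimates for 6 of the 7 members keep their sign throughout, and IGFBP3 crosses 0 in 1 fit.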

How the data were processed

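RNA sequencing of 6 ARPE-19 libraries was analysed, 3 per group as labelled. Both tables were deposited by the authors: estimated counts for each gene, unscaled and without decimals, and FPKM, scaled for transcript length and library size. The submitters' processing notes name fastp 0.20.1, HISAT2 2.2.1 and GRCh38. The counting program, the annotation release and the strand setting are not given in the sources used here. Each of them also has 3 per-sample columns that match no sample and were not used.

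Entries of 853 assembled loci without a gene name (0.519 to 0.536% of counts) were left out, and the other 20461 formed the gene table, of which 20229 identifiers matched GENCODE release 29. Counts were fitted in R 4.3.3 with edgeR 4.0.16 (filterByExpr, TMM, robust quasi-likelihood test of PDZK1 over control on all 6 libraries, biological coefficient of variation 0.0995), with Benjamini-Hochberg adjustment over all 13645 tested genes and a threshold of 0.05. CPM use TMM library sizes. DESeq2 1.42.0, limma 3.58.1 on log2 FPKM (pseudocount 1 or 0.1), other filters and scalings, a replicate block and leaving out each library were alternatives. The script was tested on simulated data, with changes larger than those of IGFBP7 and IGF1R. Named were all members, every IGF axis gene past the threshold and the 2 most abundant genes of each role. Axis genes called only in an alternative fit were named too, as were the 3 genes with profiles most like each called member. The members and lists were chosen with earlier results of these data known. Intervals for 0 counts cover counting error only, at 27970618 to 32804567 counts per library.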

Additional observations from a re-analysis of the deposited data

How the results depend on the processing

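Of 3 members, 3 axis genes and 522 genes called, DESeq2 gave 4, 7 and 793, and the edgeR fits with relative log expression factors, library totals, a minimum of 1 count or of 10 counts gave 3 or 4 members, 3 axis genes and 509 to 517 genes. Limma on log2(FPKM + 1) called 1, 1 and 191, with a pseudocount of 0.1 it called 1, 1 and 187, and without a filter 1, 1 and 184. Leaving out 1 library gave 0 to 4 members, 1 to 10 axis genes and 181 to 875 genes: the highest counts came without control replicate 3, and no member passed without control replicate 2, PDZK1 replicate 1 or PDZK1 replicate 3, with 4 members at an unadjusted p under 0.05 in each of those edgeR fits. The replicate block called 0 members, 1 axis gene and 163 genes, with 4 members at an unadjusted p under 0.05 and edgeR adjusted p-values of 0.0899 for IGFBP7, 0.0835 for IGFBP5 and 0.138 for IGF1R. Residuals of libraries sharing a replicate number had correlations of -0.046, -0.056 and -0.143, which gave no sign of pairing but do not settle it. The log2 fold changes under the block were 0.22 for IGFBP7, 0.85 for IGFBP5 and 0.17 for IGF1R, close to those without it. Keeping the assembled loci, an alternative chosen after seeing the data, gave 3, 3 and 467.

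The log2 fold change of IGFBP3 ran from -0.062 to 0.016 with 1 library left out and was above 0 only without PDZK1 replicate 3. The other 6 tested members kept their sign in all 16 alternatives. The binding protein sum without IGFBP7 differed by 13.6 FPKM, against 104 with it. IGFBP6 passed in 5 alternatives, including library totals (edgeR adjusted p = 0.0408) and minimums of 1 (0.0469) and 10 counts (0.0482). The cause of these changes was not tested. With 3 libraries per group, calls of members near the threshold changed with the library left out. IGFBP2 and IGFBP5 rest on the fewest reads.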
